A study of Mus musculus with 8 samples.

Results

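The regions described here are short stretches of open chromatin that were found in every library of the study. They were chosen from the deposited peak lists by merging the peaks of all 8 libraries wherever they overlapped by 1 bp or more, and keeping regions on chromosomes 1 to 19 that held a peak of every library and were less than 1500 bp wide after merging. This gave 27456 narrow regions of 114533 merged regions in all. They made up 25% of the 109822 merged regions on the autosomes and 78.1% (exact Clopper-Pearson 95% interval 77.7% to 78.5%, counting error only) of the 35155 autosomal regions with a peak in all 8 libraries. The other 7699 of those were broad, at 1500 bp or more. Presence in all libraries and merged width chose the members, so neither is a finding, and neither is tested.

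The assay was ATAC-seq, in which a transposase cuts and tags the DNA it can reach, so that places where reads gather mark open chromatin. From the marrow of single mice, cells bearing c-Kit, a receptor of blood stem and progenitor cells, were pulled out with magnetic beads, and 50000 cells were used per sample. Each of 4 genotypes had 2 libraries. Smc3-deleted Flt3-ITD mice carried Flt3-ITD and a Smc3 deletion. Their genotype label reads Smc3 fl/del and their title Smc3 heterozygous, so the state of the second Smc3 allele is not settled. Flt3-ITD mice carried the duplication, with no Smc3 allele named in the genotype label. Smc3 del/+ mice had lost 1 Smc3 allele, and control mice were Smc3 fl/+. The titles mark the control libraries as lacking Mx1-Cre and all others as carrying it, so any comparison with control also compares mice with and without the recombinase. All mice were sampled 4 weeks after PIpC, which switches on Mx1-Cre through the interferon response. The Mx1 promoter is not restricted to blood cells, and c-Kit+ marrow is a mixture of cell types. In the free-text descriptions, those of Flt3-ITD and of Smc3 del/+ have changed places compared with title and genotype label, and the groups here follow the titles. The labels do not say in so many words that replicates are different mice, so a p-value here covers library-to-library spread, which may be technical.

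Cohesin is the ring complex, with Smc3 as a core subunit, that holds sister chromatids together and extrudes chromatin loops. It halts at sites bound by CTCF, and such sites, like the promoters of widely used genes, are known from many tissues to stay open across cell states. Flt3-ITD is an activating duplication in a receptor tyrosine kinase of progenitor cells, found in acute myeloid leukemia. Regions open in every genotype are therefore a place to ask whether the shape of an open site, rather than its presence, differs with cohesin dose or Flt3-ITD. The peaks are in mm9 coordinates, counted here from 1. Genes, promoters, CTCF sites, cell type markers and DNA sequence at these coordinates were not analysed here, since no mm9 annotation or genome was used.

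The lists held 61953 to 80698 peaks per library, and the read depth behind them is unknown. Smc3-deleted Flt3-ITD libraries stood apart from the rest on the sex chromosomes, with 282 and 294 peaks on Y, against 84 to 98 in the other 6 libraries, and with the lowest shares of peaks on X. The narrow regions are autosomal, but a difference that involves this genotype is also one between libraries unlike on X and Y, and results were recomputed without them.

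Merged widths formed several humps rather than 1 around a typical size, and only the first was set well apart. The median was 1013 bp, with quartiles of 787 and 1246 bp and a lowest value of 154 bp. In 50 bp steps the counts peaked between 450 and 499 bp (2239 regions), again between 800 and 849 bp (2104 regions), and once more between 1200 and 1249 bp (1700 regions). Between the first peaks they dropped to 248 regions at 600 to 649 bp. Limits of 650 and 1000 bp, set after the distribution was seen and used for description only, put 5561 members (20.3%) under 650 bp, 7848 (28.6%) from 650 to 999 bp and 14047 (51.2%) from 1000 bp to the limit. The limit itself cut through a smooth slope, with 173 members in the last 10 bp below it and 179 regions in the first 10 bp from it upward.

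**Figure D1:**
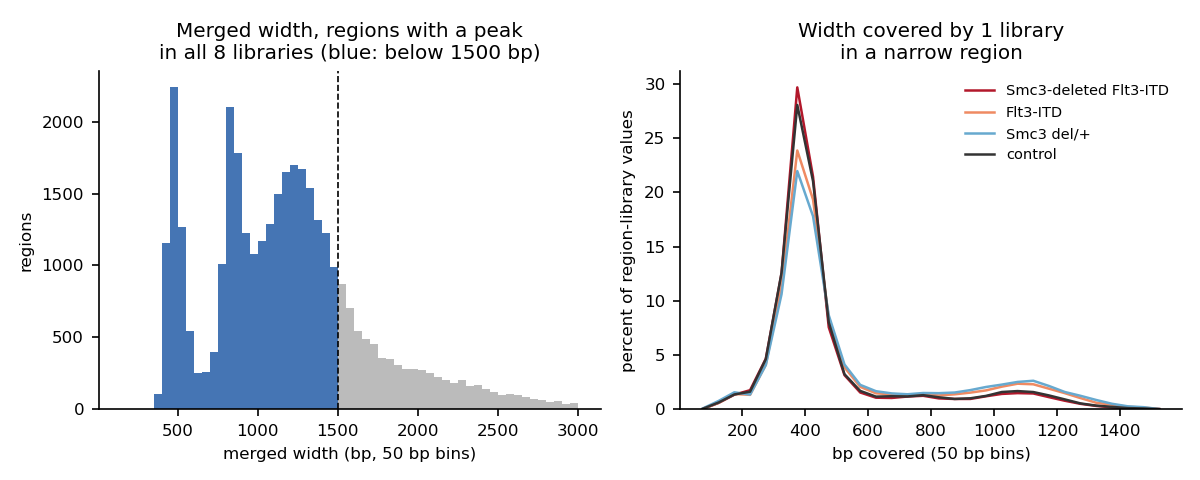
Left, number of regions with a peak in all 8 libraries by merged width in 50 bp bins, with the dashed line at 1500 bp. Right, percent of values by bp that a single library covers in a narrow region, with 1 line per genotype (2 libraries each). Merged widths show 3 humps below the limit, and single libraries show a main hump near 390 bp with a low second one near 1100 bp that is highest in Smc3 del/+ and Flt3-ITD.

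Single libraries covered far less than the merged width. The median bp covered by the peaks of 1 library in a member lay between 398 and 424 bp over the 8 libraries, and each library covered between 48.2% and 56.5% of the merged bases. Within a member the libraries varied widely in width. The widest of the 8 was 2.83 times the narrowest in the median member, a median range of 566 bp. Members under 650 bp varied less, with a median fold of 1.47, against 2.19 from 650 to 999 bp and 3.61 from 1000 bp. A library seldom had more than 1 separate peak in a member (1.09% to 1.23% of members), so these ranges are mainly differences in the extent of single peaks.

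A member did not always hold a base inside a called peak of every library. The peak caller is not known, so positions and widths here are those of called intervals. How far the calling itself sets them, and with them the missing common bases and the left and right positions described next, was not tested. In 12278 of the 27456 members (44.7%, exact 95% interval 44.1% to 45.3%) no single base was covered by peaks of all 8 libraries, although each library had a peak there. The largest number of libraries over 1 base was 7 in 6207 members, 6 in 4250, 5 in 1672 and 4 in 149. Broad regions gave 49.0% with no common base. Without both Smc3-deleted Flt3-ITD libraries the share over the other 6 was 37.1% of the same members. A common base is easier to reach over fewer libraries, and with any 1 library left out the share was 41.0% to 41.6%. No other pair of libraries was left out, so whether this genotype matters to the fall was not tested.

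The position of the peaks followed the merged width. Members under 650 bp had peaks that lay on top of each other: 98.5% of midpoints were within 100 bp of the centre of the merged region, and 99.8% of these members had a base covered in all 8 libraries. A narrow merged region can hold 8 peaks near 390 bp only if they coincide, so this follows in part from the width. From 650 to 999 bp the midpoints split into a left and a right group. Here 42.7% lay more than 100 bp to the left of the centre, 40.7% more than 100 bp to the right and 16.6% between. In 6039 of these 7848 members (76.9%) at least 1 library lay on each side, with medians of the left and right midpoints 390 bp apart (quartiles 367.5 and 415.5 bp), about the width of a single peak. No base was common to all libraries in 71.2% of the 7848 members. Peaks near 390 bp that merge to 650 bp or more cannot all coincide. The left and right groups, their distance and the missing common base thus also follow in part from the width. From 1000 bp the midpoints formed a low, wide distribution, and 47.5% of members had no common base.

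**Figure D2:**
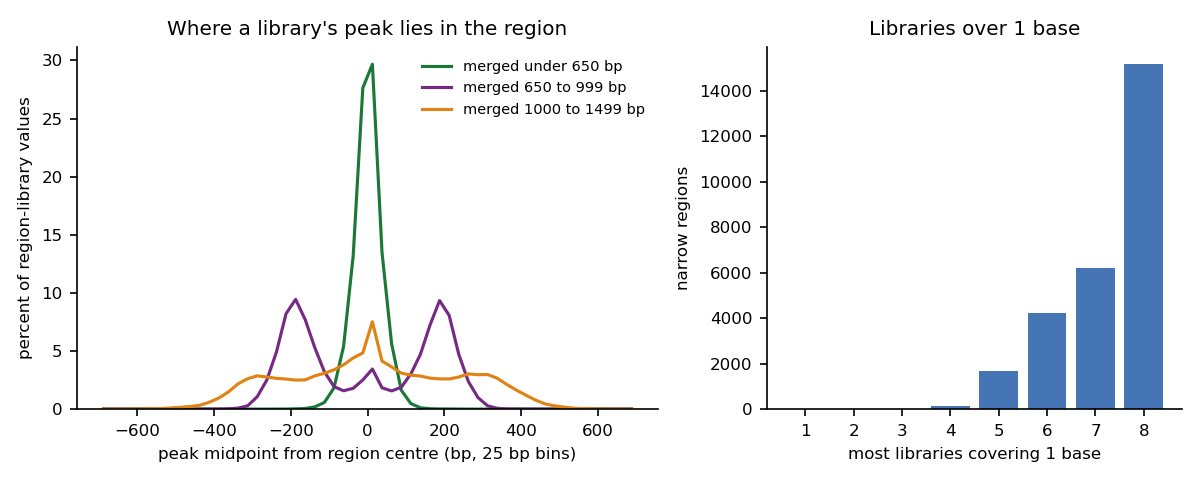
Left, percent of peak midpoints by distance from the centre of the merged region (25 bp bins, all 8 libraries pooled), with 1 line per class of merged width. Right, number of narrow regions by the largest number of libraries whose peaks cover 1 base, which is 8 in 15178 regions and between 4 and 7 in the other 12278. Members under 650 bp give a single central hump, those from 650 to 999 bp give a left and a right hump, and the widest class is spread out.

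Among members from 650 to 999 bp, which side a library took was only weakly shared between libraries. The correlation of side (left, centre or right) across regions was 0.152 to 0.285 for the 4 pairs of libraries of the same genotype. It was 0.144 to 0.279 for the 24 pairs of different genotypes. These are descriptions over 7848 regions that share the same libraries. Short peaks that all took the same side would mostly merge to less than 650 bp. Low correlations therefore follow in part from choosing this class by merged width. Every library took both sides at similar rates, with 41.3% to 43.6% of its peaks on the left and 39.0% to 42.0% on the right. Over all members, the peaks of 2 libraries shared at least 1 bp in 91.9% to 92.6% of members within a genotype and in 91.5% to 92.3% between genotypes, ranges that overlap. Requiring 50% of the narrower peak gave 84.0% to 84.7% within and 83.1% to 84.4% between genotypes.

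Examples show the 3 arrangements. At chr1:97210267-97210748, the member nearest the median merged width of its class (482 bp), peaks of Smc3-deleted Flt3-ITD libraries were 427 and 421 bp wide, those of Flt3-ITD libraries 441 and 370 bp, those of Smc3 del/+ libraries 421 and 466 bp, and those of control libraries 372 and 413 bp. Every midpoint there lay within 30.5 bp of the centre and every library scored exactly 1. At chr1:4770015-4770916, the first member along the genome with 4 libraries on each side, the widths were as uniform (432 and 435 bp in Smc3-deleted Flt3-ITD, 421 and 334 bp in Flt3-ITD, 362 and 420 bp in Smc3 del/+, 429 and 361 bp in control). Its midpoints were not. Both Smc3-deleted Flt3-ITD libraries lay to the right, at 183 and 153.5 bp from the centre, and both Flt3-ITD libraries to the left, at -227.5 and -162 bp. The Smc3 del/+ libraries were split, at -222 and 167 bp, as were the control libraries, at 236.5 and -270.5 bp. At chr1:72187903-72189143 (1241 bp merged) Flt3-ITD replicate 1 covered 1236 bp and Smc3 del/+ replicate 1 covered 1042 bp, whereas their own replicates covered 386 and 393 bp. Smc3-deleted Flt3-ITD libraries covered 379 and 740 bp there and control libraries 295 and 440 bp. The 3 examples were picked by position or by nearness to a median after the distributions were seen.

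**Figure D3:**
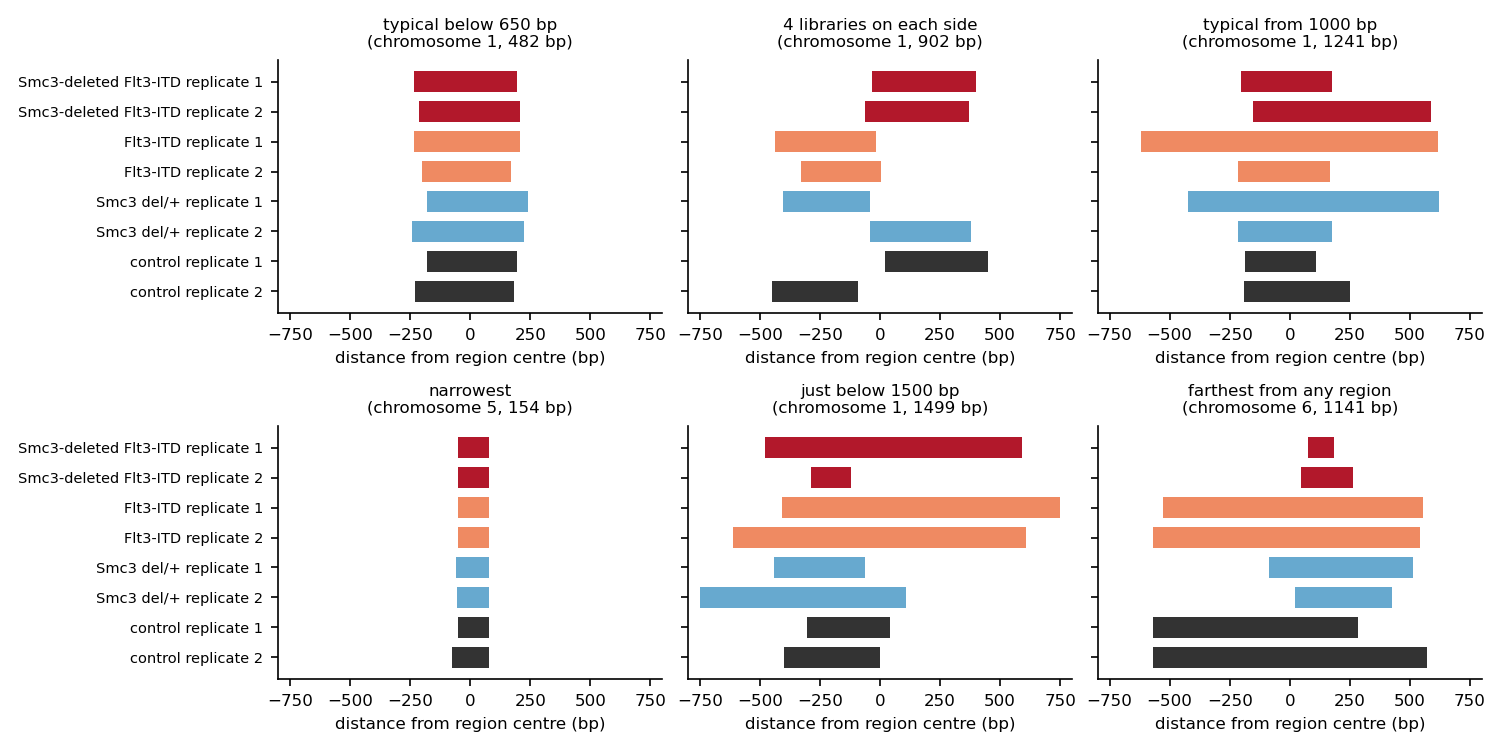
Extent of each library's peaks in 6 single regions, as distance in bp from the centre of the merged region, with Smc3-deleted Flt3-ITD libraries at the top and control at the bottom. Peaks stack in the region of 482 bp and in the narrowest one, lie side by side in the one with 4 libraries on each side, and mix short and long extents in the regions of 1241, 1499 and 1141 bp.

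Widths by genotype addressed whether cohesin dose or Flt3-ITD goes with a change in the called size of these open sites. The median width over all members was 398 and 399 bp in Smc3-deleted Flt3-ITD libraries, 414 and 417 bp in Flt3-ITD libraries, 424 and 422 bp in Smc3 del/+ libraries and 401 and 402 bp in control libraries. Both single genotypes thus lay above control and above Smc3-deleted Flt3-ITD, with no overlap between any 2 genotypes. Relative to control, the mean of medians was 21.5 bp higher in Smc3 del/+, 14.0 bp higher in Flt3-ITD and 3.00 bp lower in Smc3-deleted Flt3-ITD. A two-sided permutation test of 2 libraries against 2 cannot go below 0.333, and pairs are given without one.

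Across all 8 libraries, exact two-sided permutation tests over 70 assignments were made of Smc3 deletion, of Flt3-ITD and of their interaction, with Benjamini-Hochberg adjustment over 5 measures and 3 contrasts. For Smc3 deletion the mean of medians was 410.75 bp with the deletion and 408.5 bp without, a difference of 2.25 bp (exact p = 0.686, adjusted p = 0.791). For Flt3-ITD it was 407 bp with and 412.25 bp without, a difference of -5.25 bp (exact p = 0.514, adjusted p = 0.740). The interaction sets Smc3-deleted Flt3-ITD and control (400 bp) against the single genotypes (419.25 bp). Its difference of -19.25 bp had the smallest p that 4 against 4 allows, 0.0286. All 4 libraries of one side lay below all 4 of the other. The adjusted p was 0.143. No adjusted p under 0.05 was possible here, because too few of the tests can reach the smallest p at once. Adjusted values of these tests therefore cannot decide whether a difference is present. Whole lists followed the same order, with median autosomal peaks of 405 and 406 bp in Smc3-deleted Flt3-ITD, 422 and 424 bp in Flt3-ITD, 434 and 432 bp in Smc3 del/+ and 409 and 408 bp in control. Measured from the median of all autosomal peaks of the same library, members were 7 bp narrower for both Smc3-deleted Flt3-ITD libraries, 8 and 7 bp in Flt3-ITD, 10 bp in both Smc3 del/+ libraries and 8 and 6 bp in control. On that scale the interaction difference was 1.75 bp (adjusted p = 0.490). Genotype means of list length ran in the reverse order of median width. Each list was therefore also cut to the same number of peaks by score and the members found anew. The interaction difference in median width was then -20.25 bp over 26060 members (adjusted p = 0.107).

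The genotypes differed mainly in how often a library gave a long peak, and little in the size of the usual short one. A limit of 600 bp, placed after the distribution was seen, separated the main hump from the second. Members with 600 bp or more covered made up 15.5% and 16.0% for Smc3-deleted Flt3-ITD libraries, 23.6% and 23.9% for Flt3-ITD libraries, 27.2% and 26.5% for Smc3 del/+ libraries and 16.3% and 18.0% for control libraries. Among members below 600 bp the medians were 385 bp for each of the Smc3-deleted Flt3-ITD libraries, 389 and 390 bp in Flt3-ITD, 390 bp in both Smc3 del/+ libraries and 386 and 385 bp in control. The genotypes were thus within 5 bp of each other for short peaks, and the single genotypes had more long ones. By number of libraries with a long peak, 9407 members (34.3%) had none and 6735 (24.5%) had it in a single library. It was seen in 2 libraries in 4368 members (15.9%), in 3 in 2725, in 4 in 1625, in 5 in 1096, in 6 in 664, in 7 in 455 and in all 8 in 381 (1.39%). In members from 1000 bp, where most long peaks lay, the share was 26.2% and 27.1% for Smc3-deleted Flt3-ITD, 40.4% and 40.8% for Flt3-ITD, 45.9% and 45.0% for Smc3 del/+ and 27.7% and 30.8% for control. In members under 650 bp, where a peak of this length nearly fills the region, no library reached 1%. Over all members, genotype means of this share ran in the reverse order of mean list length. The order of genotype means was the same outside the members. In broad regions the mean share was 54.7% for Smc3-deleted Flt3-ITD, 64.3% for Flt3-ITD, 66.5% for Smc3 del/+ and 56.8% for control. In narrow regions called in 1 to 7 libraries it was 24.9%, 29.9%, 32.1% and 25.5% in the same order of genotypes.

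**Figure D4:**
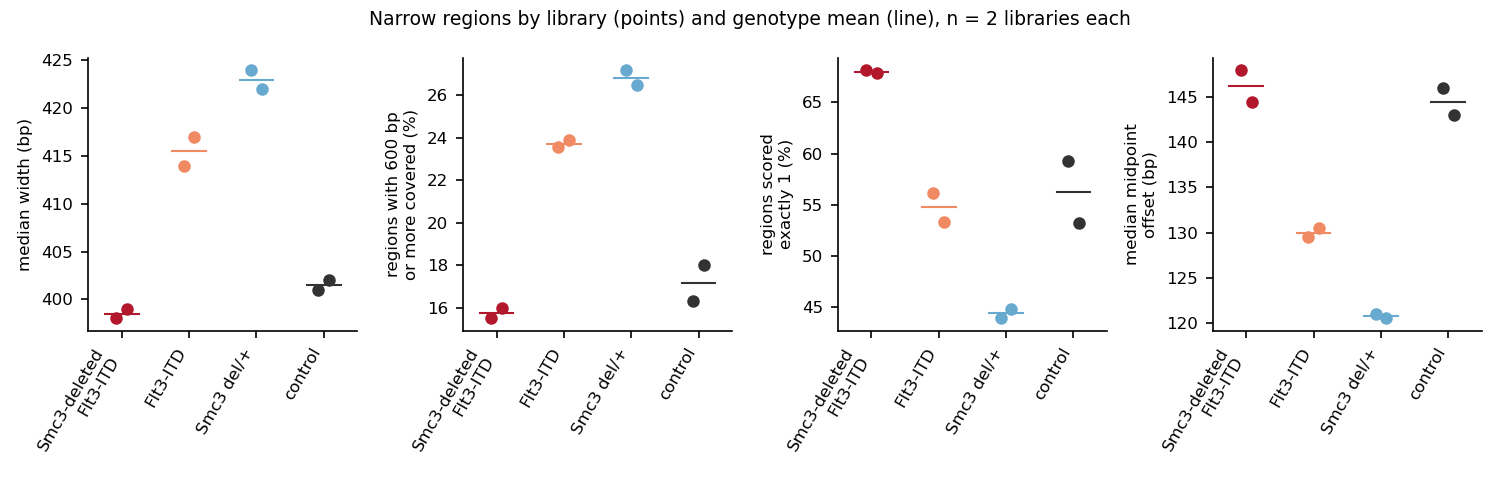
Values of each library (points) and the mean of each genotype (line, n = 2 libraries) over the narrow regions, for median width, share of regions with 600 bp or more covered, share scored exactly 1, and median distance of the peak midpoint from the region centre. The axes do not start at 0. Smc3-deleted Flt3-ITD and control lie together in width, long peaks and offset, with Flt3-ITD and Smc3 del/+ apart from them, and Smc3-deleted Flt3-ITD has the highest share scored exactly 1.

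No single narrow region passed a test of width. A limma fit of log2 bp covered over the 35155 autosomal regions with a peak in all 8 libraries, with all 4 genotypes sharing 1 estimate of the spread, called 0 regions (0%) at an adjusted p of 0.05 in any of 8 contrasts. At an unadjusted p under 0.05 it gave 1292 members (4.71%) for Smc3 deletion, against 5.47% of all regions tested. For Flt3-ITD it gave 1438 members (5.24%), against 6.12%, and for the interaction 1705 (6.21%), against 7.16%. Against control it gave 901 members (3.28%) for Smc3-deleted Flt3-ITD, against 4.09% of all regions, 1350 (4.92%) for Flt3-ITD, against 5.69%, and 1733 (6.31%) for Smc3 del/+, against 7.03%. Smc3-deleted Flt3-ITD gave 1233 (4.49%) when set against Flt3-ITD, beside 5.47% of all regions, and 1784 (6.50%) when set against Smc3 del/+, beside 7.46%. The members' share lay below that of all regions in each of the 8 contrasts. The limit on merged width bounds the width in every library, so this follows in part from the rule. With the limit at 1000 bp the members' share for the interaction was 2.94%, and at 2000 bp it was 6.80%. The median log2 change over members was 0.09 for Smc3 del/+ minus control, 0.06 for Flt3-ITD minus control and -0.01 for Smc3-deleted Flt3-ITD minus control, beside 0.10, 0.07 and -0.01 over all regions tested. These 3 share the control libraries.

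Peak placement was tested in the same way, in a fit added after the left and right groups were seen. The measured value was the position of a library's peak midpoint relative to the centre of the merged region. No region (0%) passed at an adjusted p of 0.05 in any of the 8 contrasts. Unadjusted p was under 0.05 in 1900 members (6.92%) for Smc3 deletion, against 7.56% of all regions, in 1894 (6.90%) for Flt3-ITD, against 7.92%, and in 2001 (7.29%) for the interaction, against 7.97%. Against control it was so in 1491 members (5.43%) for Smc3-deleted Flt3-ITD, beside 6.4% of all regions, in 1700 (6.19%) for Flt3-ITD, beside 7.14%, and in 1883 (6.86%) for Smc3 del/+, beside 7.57%. Set against Flt3-ITD and against Smc3 del/+, Smc3-deleted Flt3-ITD gave 1738 (6.33%) and 1947 (7.09%), beside 7.15% and 8.1%. With only the upper 50% of each list by score, between 16 and 113 of 16295 members passed per contrast (0.0982% to 0.693%, beside 0.0978% to 0.664% of the 19431 regions then tested). With only peaks scored exactly 1 it was between 6 and 86 of 10682 (0.0562% to 0.805%, beside 0.0564% to 0.766% of 12409).

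The median distance of the midpoint from the centre, whatever its direction, was 148 and 144.5 bp in Smc3-deleted Flt3-ITD libraries, 129.5 and 130.5 bp in Flt3-ITD libraries, 121 and 120.5 bp in Smc3 del/+ libraries and 146 and 143 bp in control libraries. A peak that fills more of a region has, by construction, a midpoint nearer the centre. The order of genotype means was the reverse of that for long peaks, with overlap between Smc3-deleted Flt3-ITD and control. The interaction difference of 20 bp (145.4 against 125.4 bp) had the smallest possible exact permutation p of 0.0286 (adjusted p = 0.143). For Smc3 deletion the difference was -3.75 bp (adjusted p = 0.786) and for Flt3-ITD 5.50 bp (adjusted p = 0.740).

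By genotype means, the share of members with a score of exactly 1 ran in the reverse order of median width. Over whole lists the order differed, with Flt3-ITD above control. Each peak carries a score set by the authors, between 0.99 and 1 as deposited, whose meaning was not given in the sources used here. A share of 68.2% and 67.9% of members scored exactly 1 in Smc3-deleted Flt3-ITD libraries, 56.1% and 53.3% for Flt3-ITD libraries, 43.9% and 44.8% for Smc3 del/+ libraries and 59.3% and 53.2% for control libraries. Smc3-deleted Flt3-ITD lay above all other libraries and Smc3 del/+ below all others, while Flt3-ITD overlapped control. Over whole lists the share was 34.7% and 34.9% for Smc3-deleted Flt3-ITD, 32.0% and 31.8% for Flt3-ITD, 27.2% and 27.3% for Smc3 del/+ and 30.9% and 31.6% for control. The exact permutation test gave differences of 0.691 percentage points for Smc3 deletion (adjusted p = 0.914), 11.1 for Flt3-ITD (adjusted p = 0.286) and 12.6 for the interaction (adjusted p = 0.257). Without both Smc3-deleted Flt3-ITD libraries, the contrast for Smc3 deletion becomes a different one, Smc3 del/+ against Flt3-ITD and control. Its difference was -11.1 percentage points (adjusted p = 0.222 in the same test).

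Within-library percentiles of score were limited by ties, because more than 50% of members scored exactly 1 in 6 libraries. The median percentile was 82.7 and 82.5 for Smc3-deleted Flt3-ITD, 84.0 and 84.1 for Flt3-ITD, 68.4 and 69.0 for Smc3 del/+ and 84.6 and 84.2 for control. Only the Smc3 del/+ values lie below the tie. The difference for Smc3 deletion was -8.56 (exact permutation p = 0.0286, adjusted p = 0.143, where none under 0.05 was possible). For Flt3-ITD it was 6.79 (adjusted p = 0.714) and for the interaction 7.12 (adjusted p = 0.536). The share of members with more than 1 peak of a library differed by 0.00455 percentage points for Smc3 deletion (adjusted p = 0.914), by 0.0610 for Flt3-ITD (adjusted p = 0.214) and by -0.0428 for the interaction (adjusted p = 0.490) in the same exact permutation tests.

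Score went with merged width in every library. Of members under 650 bp, 87.6% and 87.3% scored exactly 1 in Smc3-deleted Flt3-ITD libraries, 80.9% and 78.8% for Flt3-ITD, 71.8% and 72.7% for Smc3 del/+ and 83.1% and 78.8% for control. From 1000 bp the shares were 62.0% and 61.9%, 49.2% and 46.4%, 35.8% and 36.5%, and 52.3% and 45.9% in the same order of genotypes. All 8 libraries scored exactly 1 in 3678 of the 5561 members under 650 bp (66.1%), against 30.7% of those from 650 to 999 bp and 29.5% of those from 1000 bp. Over all members, 10232 (37.3%) scored exactly 1 in every library and 5901 (21.5%) in none. Broad regions scored exactly 1 in 36.0% to 61.2% of cases, lower than members in each of the 8 libraries. Regions below 1500 bp that lacked a peak in at least 1 library did so in 5.45% to 9.56%. Members were chosen by a call in every library, and how far this gap follows from that rule was not tested.

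At a limit of 1500 bp, narrow regions lay closer to each other than to broad ones, which are fewer. The order depends on the limit, since at 1000 bp the median distance was 20.9 kb to the next member and 12.3 kb to a broad region. The nearest broad region with a peak in all 8 libraries was a median of 40.5 kb away between edges, with quartiles of 12.7 and 109 kb. A broad region stood within 1 kb of 908 members (3.31%), within 10 kb of 5808 (21.2%, exact 95% interval 20.7% to 21.6%) and more than 100 kb from 7403 (27.0%). The nearest other member was a median of 9.09 kb away, with quartiles of 3.04 and 24.3 kb. Broad regions had a similar setting, with a median of 35.1 kb to the next broad region and 8.04 kb to the nearest member. Narrow regions called in 1 to 7 libraries, of which there were 71570, lay a median of 53.8 kb from a broad region and 12.7 kb from a member. Merged width made a small difference among members: those under 650 bp were a median of 46.2 kb from a broad region, those from 650 to 999 bp 39.5 kb and those from 1000 bp 38.8 kb.

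**Figure D5:**
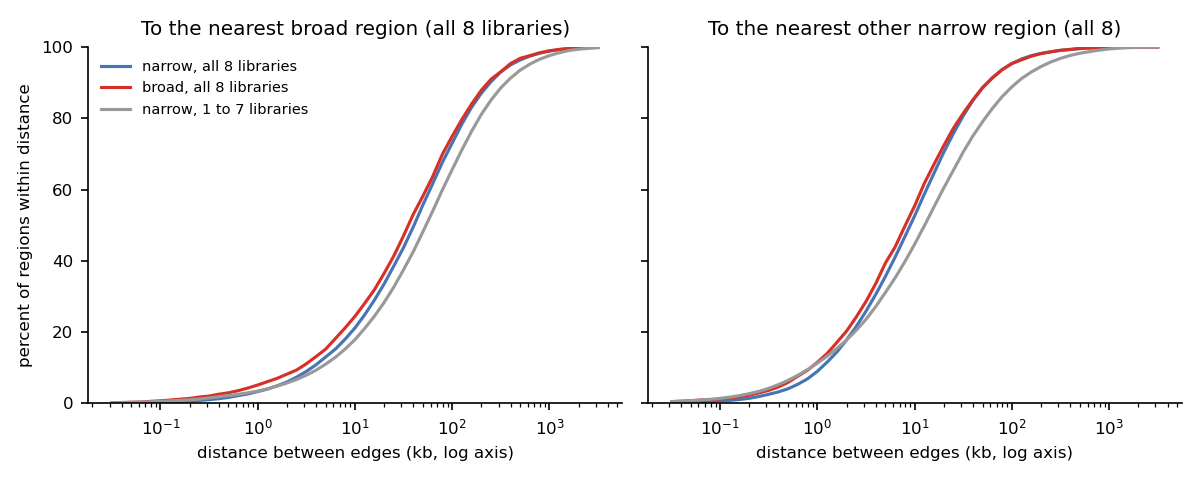
Percent of regions whose nearest broad region (left) or nearest other narrow region with a peak in all 8 libraries (right) lies within the distance on the log axis, in kb between edges. Lines are narrow regions in all 8 libraries, broad regions in all 8 libraries, and narrow regions in 1 to 7 libraries. The curves of regions found in all libraries lie close together, and that of narrow regions in 1 to 7 libraries crosses that of narrow regions in all 8. Within 1 kb it stands at 3.47% against 3.31% (left) and 11.3% against 8.97% (right), and within 10 kb at 17.9% against 21.2% and 44.6% against 52.6%.

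The immediate neighbours of members were close in kind to the mix of all autosomal merged regions. Counting all autosomal merged regions, the nearest one was a median of 1.68 kb away, and 10138 members (36.9%) had one within 1 kb. For 17377 members (63.3%) it was a narrow region called in 1 to 7 libraries, for 7284 (26.5%) another member and for 2026 (7.38%) a broad region found in all. These kinds make up 65.2%, 25% and 7.01% of the autosomal merged regions.

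Every autosome held narrow regions, from 809 on chromosome 18 to 2244 on chromosome 2. Density over the span of each chromosome ran from 8.33 per Mb on chromosome 14 to 15.9 per Mb on chromosome 11, with 14.7 per Mb on chromosome 19. Broad regions followed, from 2.36 per Mb on chromosome 14 to 4.70 on chromosome 11 and 4.65 on chromosome 19. Over the 19 chromosomes the 2 densities had a Pearson r of 0.915, and over 2424 windows of 1 Mb the 2 counts had an r of 0.798, both given as descriptions. Members took 76.0% to 80.9% of the regions found in all libraries on each chromosome. Windows of 1 Mb held a median of 9 members, 421 windows (17.4%) held none, and 476 windows (19.6%) held 50% of all members. The fullest window was chromosome 10 from 80 to 81 Mb, with 75 members and 20 broad regions, and its neighbour from 79 to 80 Mb came next with 60 and 15. Those windows were chosen after their values were seen.

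With gaps under 10 kb counted as contiguous, 14433 members (52.6%) stood in runs of 2 or more and 13023 stood alone. Runs of 5 or more numbered 341 and held 1985 members (7.23%). The longest run, chr8:126062455-126153545, was far longer than any other, with 39 members in 91.1 kb, together with 6 broad regions and 7 narrow regions called in fewer libraries. Its members were poor in top scores. Only 8.33% of their library values were exactly 1, and in a single member did all 8 libraries reach 1. By library the share was 2.56% and 10.3% for Smc3-deleted Flt3-ITD, 12.8% and 7.69% for Flt3-ITD, 5.13% and 10.3% for Smc3 del/+ and 10.3% and 7.69% for control, below the share over all members in each case. The next longest runs, chr1:156896003-156946955 and chr10:120907518-120953628, had 11 members each in 51.0 and 46.1 kb, with 75% and 70.5% of library values at exactly 1.

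Members at the ends of the measured ranges were named by rule. The narrowest was chr5:60434136-60434289 (154 bp), where Smc3-deleted Flt3-ITD libraries were both 127 bp wide, Flt3-ITD libraries both 127 bp, Smc3 del/+ libraries 137 and 133 bp and control libraries 127 and 154 bp. The next were chr4:28104230-28104469 (240 bp) and chr13:111158809-111159072 (264 bp). All 3 scored exactly 1 in all 8 libraries and had a base common to all. The region on chromosome 5 was 2717 kb from the nearest broad region, and that on chromosome 4 was 631 kb from any other merged region.

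Just inside the limit, at 1499 bp, stood chr1:161963898-161965396, chr4:134707530-134709028 and chr4:134828196-134829694. Just outside it, at 1500 bp, stood chr1:173480897-173482396, chr1:192722675-192724174 and chr2:101721341-101722840. In each of the 6 the narrowest library covered at most 390 bp and the widest at least 1220 bp. At chr4:134828196-134829694, Smc3-deleted Flt3-ITD libraries covered 1277 and 1377 bp, Flt3-ITD libraries 390 and 1291 bp, Smc3 del/+ libraries 1345 and 933 bp and control libraries 1493 and 455 bp, so that replicates of Flt3-ITD and of control differed by more than any 2 genotype means did.

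Since 10232 members tied at the top of the score ranking, the first by position were chr1:4775512-4776345, chr1:4797217-4798684 and chr1:4847072-4848423. The lowest mean percentiles of score were 11.0 at chr11:121405920-121407189, 12.3 at chr18:3666287-3667400 and 13.0 at chr2:78888746-78889775. None of the 3 had a base covered in all 8 libraries, the most being 7, 6 and 5. At the last, Smc3-deleted Flt3-ITD libraries covered 438 and 501 bp, Flt3-ITD libraries 468 and 537 bp, Smc3 del/+ libraries 277 and 389 bp and control libraries 352 and 444 bp.

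The most isolated members lay 1255 kb (chr6:105038578-105039718), 1136 kb (chr4:91042765-91043889) and 677 kb (chr12:18616267-18617483) from any other merged region. That on chromosome 6 had Smc3-deleted Flt3-ITD widths of 108 and 214 bp, Flt3-ITD widths of 1084 and 1111 bp, Smc3 del/+ widths of 600 and 404 bp and control widths of 855 and 1141 bp. At chromosome 12, where every library scored exactly 1, the widths were 412 and 553 bp in Smc3-deleted Flt3-ITD, 1181 and 1100 bp in Flt3-ITD, 1150 and 1205 bp in Smc3 del/+ and 528 and 403 bp in control. Both single genotypes thus lay above all libraries of the other genotypes at that region, which was named for its isolation and did not pass the width test. Farthest from a broad region were chr15:18750991-18752162 (5766 kb), chr15:18753052-18754053 (5764 kb) and chr15:17492349-17493364 (5071 kb), and the first 2 are neighbours 0.889 kb apart.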

How the data were processed

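ATAC-seq peak lists of 8 libraries were used, 1 list per library, so the authors did not pool replicates. Per the submitters' processing notes, reads were handled with Bowtie (version not given) and the mm9 build. Peak caller, transposase offset and duplicate handling were not given in the sources used here. Each list has 6 columns with no header, and the deposited score of a peak lies between 0.99 and 1. Read depth is unknown. The lists hold 557040 peaks, among them 1550 repeated intervals, which merged.

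Peaks were merged on an overlap of 1 bp, and bp covered, best score, number of peaks and midpoint were taken per region and library. Contrasts over 8 libraries used an exact two-sided permutation test with Benjamini-Hochberg adjustment over 15 tests. Widths and midpoints were fitted per region with limma 3.58.1 (R 4.3.3). Merging, permutation and fitting were tested on simulated data. Positions were described with no test. Samples were grouped by title, and no replicates were alike (0.31% to 0.467% of regions had equal widths). Members and lists were chosen with earlier results of these data known. Regions were named by rule: up to 3 per direction with the largest width change that passed (none did), narrowest, at the limit, highest and lowest score, most isolated and longest runs. Alternatives varied libraries, labels, merging, limits and scores. Tables and tests used pandas 2.3.3, scipy 1.17.1 and numpy 2.4.6 in Python 3.11.15, and figures matplotlib 3.10.9.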

Additional observations from a re-analysis of the deposited data

Results flagged for a closer look

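In 3 measures over the narrow regions, Smc3 deletion went with a shift in one direction in mice with Flt3-ITD and in the opposite direction in mice without it, in every library. Median width was lower in Smc3-deleted Flt3-ITD (398 and 399 bp) than in Flt3-ITD (414 and 417 bp), but higher in Smc3 del/+ (424 and 422 bp) than in control (401 and 402 bp). The interaction difference was -19.25 bp. The share scored exactly 1 was higher in Smc3-deleted Flt3-ITD (68.2% and 67.9%) than in Flt3-ITD (56.1% and 53.3%), but lower in Smc3 del/+ (43.9% and 44.8%) than in control (59.3% and 53.2%), with an interaction difference of 12.6 percentage points. The median midpoint offset was higher in Smc3-deleted Flt3-ITD (148 and 144.5 bp) than in Flt3-ITD (129.5 and 130.5 bp), but lower in Smc3 del/+ (121 and 120.5 bp) than in control (146 and 143 bp), with an interaction difference of 20 bp. The exact permutation p was 0.0286 for width and for offset, the smallest possible, and 0.0857 for the score share. Adjusted p was 0.143, 0.143 and 0.257, and none under 0.05 was possible with these tests. Genotype means of list length ran in the reverse order of width and in the same order as score share and offset. With an equal number of peaks kept per list the interaction differences were -20.25 bp for width, 13.2 points for the score share and 22.2 bp for offset. The part of read depth in these differences was not tested. Measured from each list's own median, that for width was 1.75 bp. No interaction can be computed without the Smc3-deleted Flt3-ITD libraries, which stand apart on the sex chromosomes, and the part of that in these differences was not tested. Smc3 del/+ mice carry Mx1-Cre and control mice do not, whereas both genotypes with Flt3-ITD carry it. The opposite shifts and the interaction therefore cannot be told apart from Mx1-Cre. Offset depends on width in part by construction, so these 2 measures are not independent.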

How the results depend on the processing

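Of 271 permutation results under the alternatives, 226 kept their direction and 45 reversed. The lowest adjusted p was 0.107. With so few assignments no alternative could give an adjusted p under 0.05, so only directions and sizes can be compared. No alternative gave a member with a width change in limma. Replicate numbers did not pair the libraries (correlations of deviations -0.0141 to 0.0089), and with the number as a replicate block the width interaction stayed at -19.25 bp (adjusted p = 0.208) and no call changed.

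The width interaction was -21.0 to -17.7 bp with 1 library left out. Other ranges that spread widely without changing direction were -9 to -1.33 bp for width with Flt3-ITD, 1.46 to 9.96 bp for offset with Flt3-ITD, 4.09 to 9.46 for percentile with Flt3-ITD, 4.47 to 9.70 for the percentile interaction and -0.0610 to -0.0258 points for the interaction in more than 1 peak. Ranges for Smc3 deletion crossed 0, at -2.17 to 6.50 bp for width, -8.58 to 0.583 bp for offset, -3.30 to 4.80 points for the share scored 1 and -0.0188 to 0.0273 points for more than 1 peak. Each side of a contrast is a mean over libraries, so leaving 1 out also lowers the weight of its genotype. All ranges given here, also those that crossed 0, include that shift in weight. Without both Smc3-deleted Flt3-ITD libraries each contrast sets a single genotype against the other single genotype and control, which is a different comparison. The differences that then reversed were width for Flt3-ITD (3.25 bp), share scored 1 for Smc3 deletion (-11.1 points), more than 1 peak for Smc3 deletion (-0.00455 points) and offset for Flt3-ITD (-2.62 bp). With Flt3-ITD and Smc3 del/+ libraries exchanged, Smc3 deletion and Flt3-ITD gave -5.25 and 2.25 bp for width, 6.79 and -8.56 for percentile, and 5.50 and -3.75 bp for offset, which the exchange itself brings about. Measured from each list's own median, Smc3 deletion gave a width difference of -1.25 bp, Flt3-ITD 1.25 bp and the interaction 1.75 bp. For the percentile, Smc3 deletion gave 0.278, Flt3-ITD -2.05 and the interaction -1.72 below 1000 bp, in the upper 50% by score and with only peaks scored 1, since the median member is then tied at 1 in every library. The share scored 1 for Smc3 deletion was -3.29 points in the upper 50%. The share with more than 1 peak, a small one, reversed for Smc3 deletion below 1000 bp (-0.0485), below 2000 bp (-0.0312), in the upper 50% (-0.0107) and with equal numbers of peaks (-0.0326). For Flt3-ITD it reversed in the upper 50% (-0.0782), with equal numbers (-0.109) and with only peaks scored 1 (-0.0468). For the interaction it reversed below 2000 bp (0.0561), with only peaks scored 1 (0.00468) and when merging on 50 bp (0.00679). The cause of the other reversals was not tested.

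Distances moved with the limits that define members and broad regions, and at 1000 bp the next member was farther away than the nearest broad region. The share of members with a broad region within 10 kb, the median distance to one and the median distance to the next member were 44.4%, 12.3 kb and 20.9 kb at a limit of 1000 bp, and 9.93%, 117.9 kb and 7.38 kb at 2000 bp. They were 9.70%, 107.7 kb and 15.8 kb in the upper 50% by score, 19.03%, 45.9 kb and 9.52 kb with equal numbers of peaks, and 5.17%, 219.2 kb and 26.2 kb with only peaks scored 1. Merging across gaps of 100 bp gave 23.6%, 35.2 kb and 9.33 kb, and merging on 50 bp gave 19.6%, 45.0 kb and 9.92 kb. Counting broad regions of any number of libraries gave 27.5% and 28.0 kb, and distances between midpoints 18.9% and 41.9 kb. Members numbered 13409 below 1000 bp, 16295 in the upper 50% and 10682 with only peaks scored 1. The share with no base common to all libraries was 41.0% to 41.6% with 1 library left out. With read depth unknown, no limit of detection can be given for any peak.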

Other observations

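Outside the autosomes, 715 further regions below 1500 bp on X or Y held a peak in all 8 libraries. They were left out by the rule and enter no value above.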
